A study of Saccharomyces cerevisiae with 6 samples.

Results

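The genes described here make serine, interconvert serine and glycine, and pass the carbon so released to folate. They are 10 genes of Saccharomyces cerevisiae, SER1, SER2, SER3, SER33, GCV1, GCV2, GCV3, SHM1, SHM2 and MTD1, among 5551 genes with a named probe set. Members were chosen by name, and a probe set was taken where its annotation names exactly 1 of these genes. The only measured value in the rule is mean signal, by which the brightest of several probe sets would be selected, and this choice never arose, since each of the 10 genes has 1 probe set. The list was drawn up by pathway with earlier results of these data known, among them that SER3 and GCV2 were higher in the mutant. Those differences are therefore given for SER3 and GCV2 as a description, with no p-value.

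Messenger RNA was measured on 6 arrays, 3 of a strain with tra1-2ts (MDC3) and 3 of a strain with wild-type TRA1 (MDC1). Both strains are MATa and carry ura3-52, lys2-801 and ade2-101 together with the deletions trp1∆63, his3∆200 and leu2∆1. In both, the chromosomal gene is disrupted as tra1::HIS3, and a centromeric LEU2 plasmid supplies the allele under study, tra1-2ts in one strain and TRA1 in the other. The ts allele is temperature-sensitive, and Tra1 is the protein that activators contact within SAGA and NuA4, a pair of coactivator complexes. Cultures grew in YPD, a rich medium, at 30 °C and were shifted to 37 °C, and 1 array per strain covers each of 60, 90 and 120 min. Cells before the shift were not analysed here, so a difference that the strains had at 30 °C and one that arose at 37 °C cannot be told apart.

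The values are log2 signals after RMA, a method that makes the distributions of all arrays alike, so a difference is measured against the other genes of the array. Array medians lay between 6.14 and 6.20. Within a strain the 3 times serve as replicates, although the labels do not say whether separate cultures were used. The p-values thus reflect only the spread among the arrays, which may be technical and includes any change with time. The TRA1 probe set, which cannot tell the alleles apart, averaged 9.37 ± 0.016 in tra1-2ts and 8.44 ± 0.30 in TRA1 (SD, n = 3 each). The mating type a label was set against 6 a-specific genes, which read 5.55 to 12.98 over all arrays. Of 4 alpha-specific genes, STE3 read 3.33 to 3.81, MF(ALPHA)2 3.72 to 4.26, MF(ALPHA)1 4.98 to 5.71 and SAG1 6.12 to 6.88. The highest mean of the 4 mouse control probe sets was 3.93, called the mouse control level below. Over all 4 the mean was lower, 3.26, with single readings from 2.19 to 4.22. Of the alpha-specific genes only STE3 read under 3.93 on every array. All 6 a-specific genes and 2 of the 4 alpha-specific genes, SAG1 and MF(ALPHA)1, were called higher in tra1-2ts (limma, adjusted p under 0.05), as were 18.3% of all genes, and the part of either in the results below was not tested.

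Yeast makes serine from the glycolytic intermediate 3-phosphoglycerate. Ser3 and Ser33, a pair of paralogous dehydrogenases, carry out the first step, the aminotransferase Ser1 the second and the phosphatase Ser2 the last. The serine hydroxymethyltransferases Shm1, in mitochondria, and Shm2, in the cytosol, convert serine and tetrahydrofolate to glycine and methylene-tetrahydrofolate, and can run in reverse. The mitochondrial glycine cleavage complex, with the subunits Gcv1, Gcv2, Gcv3 and Lpd1, breaks glycine down and charges folate with its carbon, and Mtd1 oxidises methylene-tetrahydrofolate in the cytosol. SER3 is known for an unusual control: when serine is plentiful, transcription of the noncoding RNA SRG1 across its promoter keeps it off, and SRG1 is itself switched on by the activator Cha4 with SAGA and Swi/Snf. The GCV genes respond to glycine, and together with SHM2 and MTD1 they are known targets of the activator Bas1, which acts with Pho2 on purine and one-carbon genes.

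The first comparison asked how these genes differ between tra1-2ts and TRA1. Besides SER3 and GCV2, whose rise was known, 4 genes were called higher in tra1-2ts (GCV1, GCV3, SHM1 and SHM2) and 2 lower (SER2 and MTD1), while SER1 and SER33 did not pass (limma, adjusted p under 0.05). With the known pair counted, 8 of the 10 genes were past the threshold, and over all 5551 genes the same test called 40.6%, with 18.3% higher and 22.3% lower. The 3 arrays of one strain did not overlap those of the other for 9 of the 10 genes, 6 higher and 3 lower, against 53.8% of all genes, with 26.1% higher and 27.7% lower. With any 1 array left out 5 to 7 of the 10 were called, and the share over all genes was not counted. Without both 60 min arrays 6 were called, beside 36.8% of all genes, and without both 120 min arrays 5, beside 31.1%. Without both 90 min arrays only the pair known beforehand, SER3 and GCV2, was called, beside 18.1% of all genes. The median difference was 0.37 over the 10 genes and 0.00 over all genes. Since the genes were listed with strain results known, these counts describe the list and nothing is read from their excess. GCV1, GCV3 and both SHM genes were called higher, and GCV2 was known to be higher. The steps of serine synthesis split. SER3 was known to be higher, SER2 was called lower, and SER1 and SER33 were not called.

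**Figure D1:**
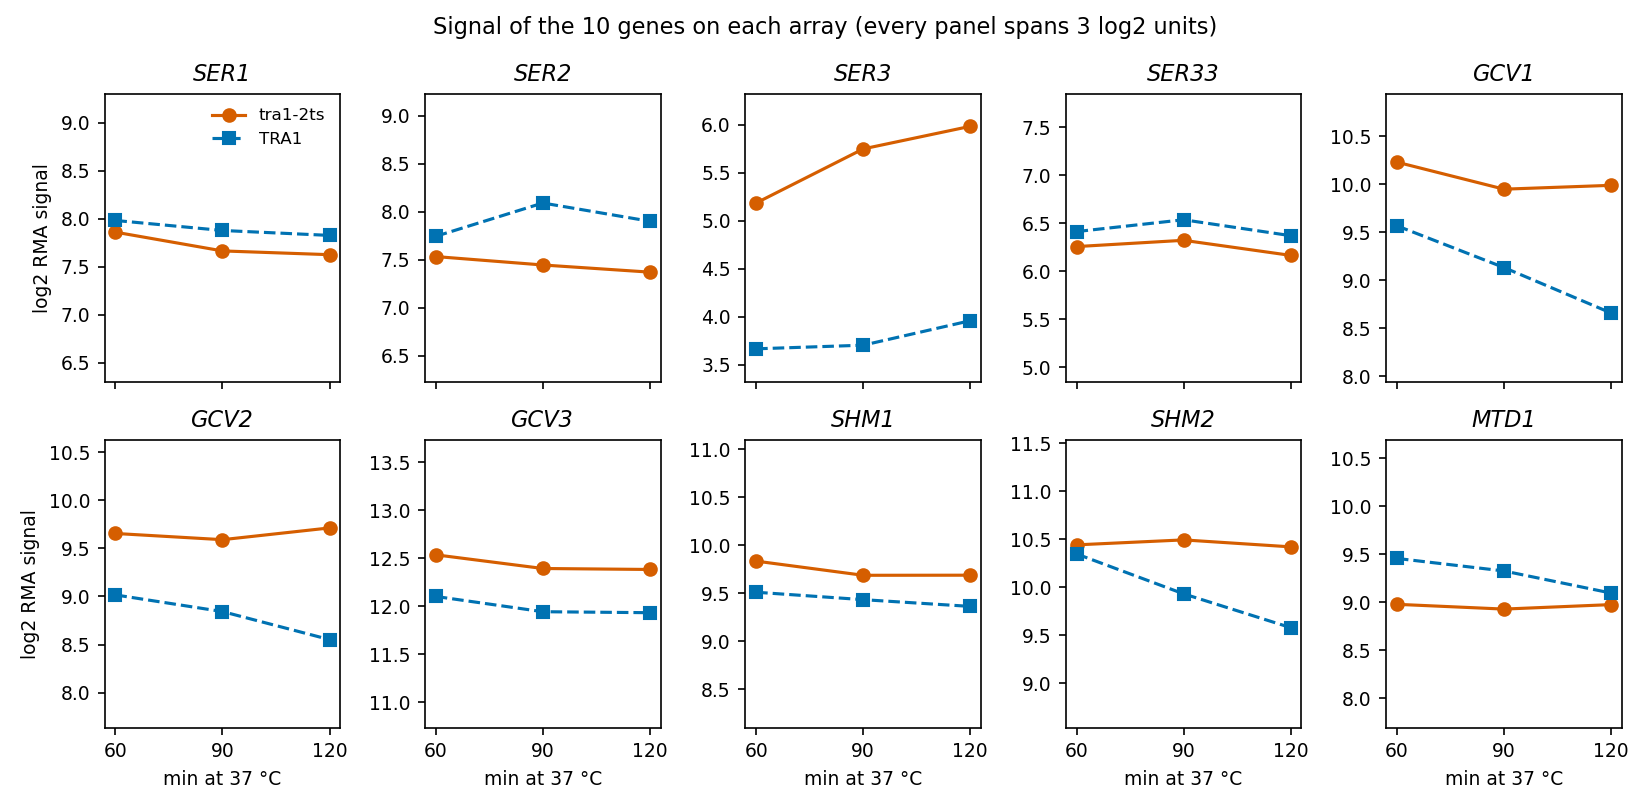
Each panel plots the log2 RMA signal of 1 gene (vertical axis, 3 log2 units in every panel) against minutes at 37 °C, with circles for the tra1-2ts arrays and squares for the TRA1 arrays, 1 array per point. SER3 lies at 5.18 to 5.98 in tra1-2ts and at 3.67 to 3.96 in TRA1, and between 60 and 120 min GCV1, GCV2 and SHM2 change by -0.24, 0.06 and -0.02 in tra1-2ts and by -0.91, -0.47 and -0.77 in TRA1.

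SER3 and SER33 encode enzymes of the same step. SER3 was higher in tra1-2ts, while the difference of SER33 was small and did not pass the test. SER3 read 5.18, 5.75 and 5.98 in tra1-2ts at 60, 90 and 120 min, against 3.67, 3.70 and 3.96 in TRA1. All tra1-2ts arrays were above all TRA1 arrays, and the TRA1 readings lay around the highest mouse control mean of 3.93, so the size of the fold depends on how background was treated. The means were 5.64 ± 0.41 and 3.78 ± 0.16 (SD, n = 3 each), a difference of 1.86 on the log2 scale or 3.63-fold.

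SER33 read 6.26, 6.32 and 6.17 in tra1-2ts, against 6.41, 6.54 and 6.37 in TRA1. Every tra1-2ts array was below every TRA1 array, but by little. The means were 6.25 ± 0.079 and 6.44 ± 0.086, and the difference of -0.19 had a 95% interval of -0.40 to 0.02, which includes 0 (limma adjusted p = 0.125).

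At single times the strain difference of SER3 was 1.52 at 60 min, 2.04 at 90 min and 2.02 at 120 min, and that of SER33 was -0.16, -0.21 and -0.21. The gap between the differences of the paralogs was thus 1.67, 2.26 and 2.23, with a mean of 2.05 ± 0.33 (SD over the 3 times). SER3 had been known to rise, so this gap is a description without a test. The SRG1 transcript, which the RefSeq annotation places next to SER3, has no named probe set in the table. The neighbouring protein-coding genes were looked up outside the rule for named genes. AIM9, on the SRG1 side, differed by -0.01 (adjusted p = 0.937), and UTP7, on the other side, fell by 0.94 (adjusted p = 0.00297).

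The later steps of serine synthesis were not higher in tra1-2ts. SER2, the phosphatase of the last step, read 7.53, 7.44 and 7.37 in tra1-2ts, against 7.74, 8.09 and 7.90 in TRA1. The groups did not overlap, and the gap was widest at 90 min. SER2 averaged 7.45 ± 0.081 and 7.91 ± 0.17, and fell by 0.46 ± 0.11 (SE; 1.38-fold lower, limma adjusted p = 0.00986). Its adjusted p was 0.119 without both 90 min arrays and 0.0582 without both 120 min arrays. SER1, the aminotransferase, read 7.86, 7.66 and 7.62 in tra1-2ts and 7.98, 7.88 and 7.82 in TRA1. It was lower in tra1-2ts at each time, while the 60 min tra1-2ts array reached into the TRA1 range. Its difference was -0.18, with a 95% interval of -0.40 to 0.05 (adjusted p = 0.178).

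The 3 GCV genes of the glycine cleavage complex were higher in tra1-2ts at every time. GCV1, the aminomethyltransferase (T protein), read 10.23, 9.95 and 9.99 in tra1-2ts, against 9.57, 9.13 and 8.66 in TRA1. The tra1-2ts arrays all lay above the TRA1 arrays, which differed more among themselves. The means were 10.06 ± 0.15 and 9.12 ± 0.45, a rise of 0.94 ± 0.20 (SE; 1.91-fold, limma adjusted p = 0.0068). GCV2, the glycine decarboxylase (P protein), read 9.66, 9.59 and 9.71 in tra1-2ts and 9.02, 8.84 and 8.55 in TRA1. Its difference was 0.85 ± 0.12 (SE; 1.80-fold).

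GCV3, the lipoyl-carrying H protein, read 12.54, 12.39 and 12.38 in tra1-2ts, against 12.10, 11.94 and 11.93 in TRA1. The groups were again apart, by nearly the same amount at each time (0.43, 0.45 and 0.45). It rose by 0.44 ± 0.094 (SE; 1.36-fold, limma adjusted p = 0.00568). The complex shares its remaining subunit, the lipoamide dehydrogenase Lpd1, with other mitochondrial dehydrogenases. LPD1 averaged 9.27 ± 0.023 in tra1-2ts and 9.33 ± 0.083 in TRA1, a difference of -0.06 (adjusted p = 0.616). Without both 90 min arrays the adjusted p was 0.0539 for GCV1 and 0.0737 for GCV3.

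Both serine hydroxymethyltransferase genes passed the strain test, by less. SHM2, the cytosolic enzyme, read 10.44, 10.49 and 10.42 in tra1-2ts, against 10.35, 9.93 and 9.58 in TRA1. The strains were close at 60 min and parted after it. The difference was 0.50 ± 0.17 (SE; 1.41-fold, limma adjusted p = 0.0456), 0.31 without the TRA1 array at 120 min and 0.33 without both 120 min arrays. SHM1, the mitochondrial enzyme, read 9.84, 9.69 and 9.69 in tra1-2ts and 9.51, 9.44 and 9.37 in TRA1, with a gap between 0.25 and 0.32 at the 3 times. It rose by 0.30 ± 0.090 (SE; 1.23-fold, limma adjusted p = 0.0276). Each of these calls ended when any 1 of 5 arrays, all but TRA1 at 60 min, was left out, with adjusted p up to 0.0847 for SHM1 and 0.122 for SHM2.

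MTD1, the cytosolic methylene-tetrahydrofolate dehydrogenase, went the other way. It read 8.98, 8.93 and 8.97 in tra1-2ts, against 9.46, 9.33 and 9.10 in TRA1. All tra1-2ts arrays were lower, and the gap was narrowest at 120 min. MTD1 fell by 0.33 ± 0.11 (SE; 1.26-fold lower, limma adjusted p = 0.0366). The call ended without any 1 of 5 arrays, all but TRA1 at 120 min, with adjusted p up to 0.118, and also with quantile normalization over the tested genes (0.0706) and with centring on array medians (0.055).

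**Figure D2:**
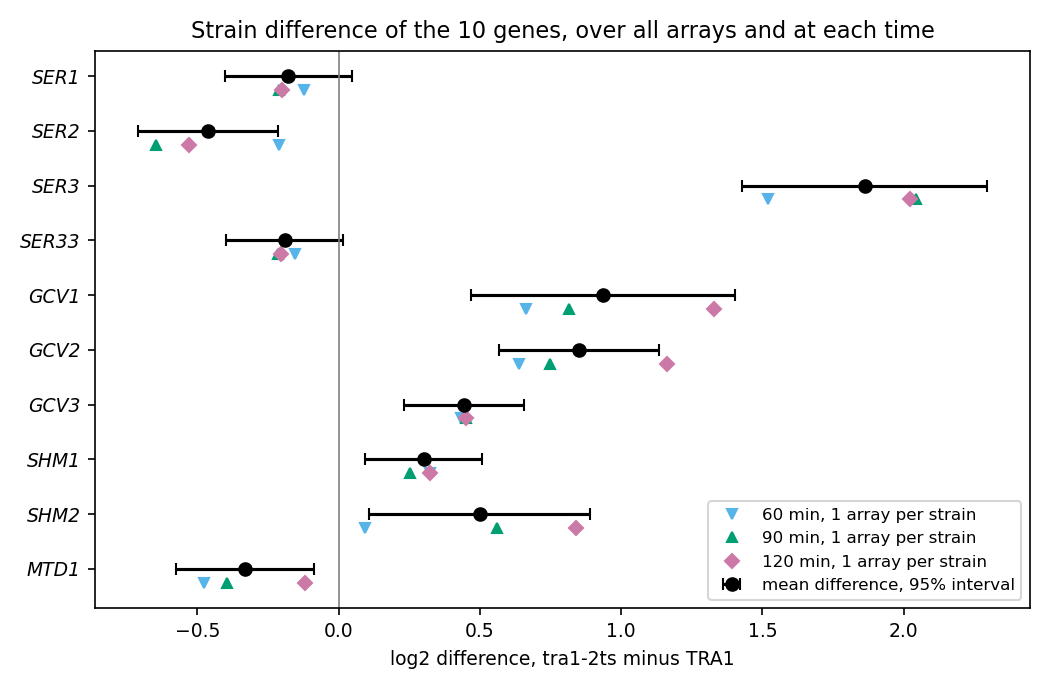
The log2 difference, tra1-2ts minus TRA1 (horizontal axis), is plotted for each gene, as the mean over 3 arrays per strain with its 95% interval from limma (black circles and bars) and at 60, 90 and 120 min from 1 array per strain (coloured marks). SER3 stands at 1.86, the GCV and SHM genes lie between 0.30 and 0.94, and SER1, SER2, SER33 and MTD1 lie below 0. For SER3 and GCV2, whose rise was known beforehand, the intervals are a description and not a test.

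The second comparison followed the genes over 60, 90 and 120 min. With a slope shared by both strains, none of the 10 genes passed (limma, adjusted p under 0.05), 3 had an unadjusted p under 0.05, and over all genes 0.324% passed and 16.2% had an unadjusted p under 0.05. Those 3 were SER3, with a slope of 0.55 ± 0.14 per 60 min (SE; adjusted p = 0.133), GCV1 with -0.57 ± 0.16 (0.146) and SHM2 with -0.39 ± 0.16 (0.292). The slope was negative for 9 of the 10 genes and positive for SER3, against 2615 positive slopes among 5551 genes. For SER2 it was -0.0026, a sign that turned with either rescaling of the arrays.

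Among the 10 genes, GCV1, GCV2 and SHM2 had the widest gaps between the strains in their change with time. Between 60 and 120 min GCV1 changed by -0.24 in tra1-2ts and by -0.91 in TRA1. GCV2 changed by 0.06 in tra1-2ts and by -0.47 in TRA1, and SHM2 by -0.02 in tra1-2ts and by -0.77 in TRA1. In all 3 genes the TRA1 level was lower at 120 than at 90 min and lower at 90 than at 60 min. The strain difference was therefore larger at 120 min than at 60 min: 1.33 against 0.66 for GCV1, 1.16 against 0.64 for GCV2 and 0.84 against 0.09 for SHM2. MTD1 also changed less in tra1-2ts (-0.0030) than in TRA1 (-0.36), and there the strain difference shrank, at -0.12 at 120 min and -0.48 at 60 min. GCV3 and SHM1 changed nearly alike in both strains, by -0.15 each in tra1-2ts and by -0.17 and -0.15 in TRA1.

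These differences in slope did not pass a test of their own. The fit with a slope per strain has 2 residual degrees of freedom, and it called none of the 10 genes and 0 of 5551 (limma, adjusted p under 0.05), with 3 of the 10 and 7.06% of all genes at an unadjusted p under 0.05. The slope in tra1-2ts minus that in TRA1 was 0.75 per 60 min for SHM2 (95% interval 0.29 to 1.20, adjusted p = 0.67), 0.67 for GCV1 (0.16 to 1.18, adjusted p = 0.67) and 0.52 for GCV2 (0.05 to 1.00, adjusted p = 0.686). For SER3 it was 0.51 (-0.03 to 1.04, adjusted p = 0.709). SER3 changed by 0.80 between 60 and 120 min in tra1-2ts and by 0.29 in TRA1, where its readings lay around the mouse control level.

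**Figure D3:**
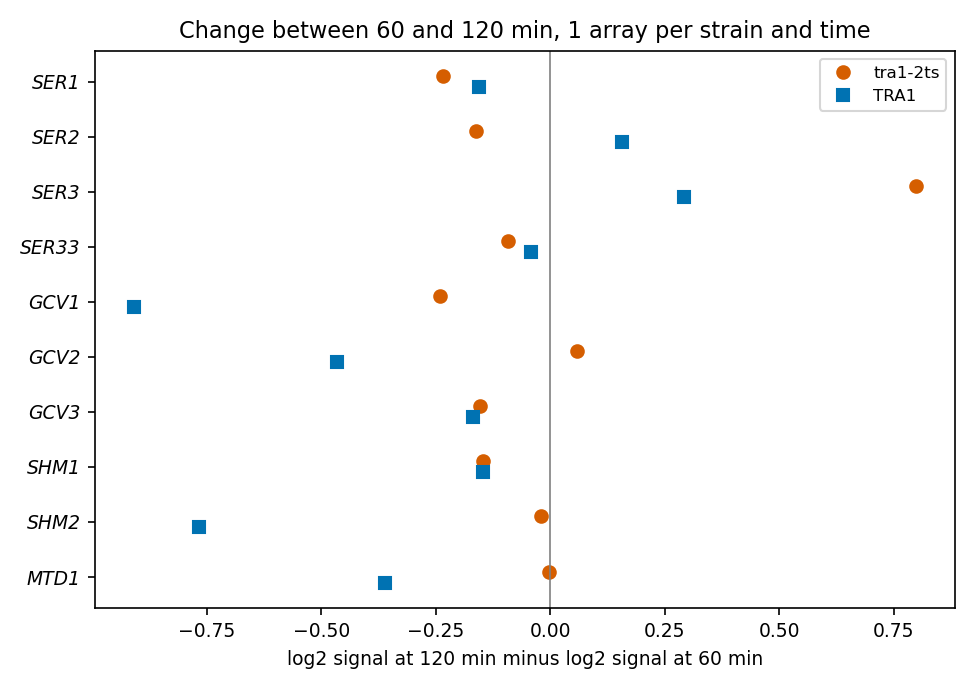
The log2 signal at 120 min minus that at 60 min (horizontal axis) is shown for each gene in tra1-2ts (circles) and TRA1 (squares), each from 1 array per time. In TRA1 the changes run from -0.91 for GCV1 to 0.29 for SER3, and in tra1-2ts from -0.24 for GCV1 to 0.80 for SER3.

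The profiles of the 10 genes over the arrays were set side by side. The likeness of 2 genes was measured as the root mean square difference of their log2 signals over the 6 arrays, each gene centred on its own mean. The nearest pair was GCV3 and SHM1 (0.076), followed by SER1 with SER33 (0.10) and with MTD1 (0.12). Next came SER33 with MTD1 (0.13) and with SER2 (0.159), and then GCV1 with GCV2 (0.162). SER3 lay 0.60 from GCV2, the nearest of the other genes, 1.07 from its paralog SER33 and 1.20 from SER2, the farthest. The measure includes the strain difference, and the rise of SER3 was known, so its distances are no separate result. In the whole table the 5 profiles nearest to that of SER3 were the tRNA genes YNCC0001C (0.15), YNCK0005C (0.16), YNCB0018W (0.17) and YNCE0012W (0.17), and TPO2 (0.17), which encodes a polyamine exporter. TPO2 read 8.93, 9.23 and 9.48 in tra1-2ts and 7.32, 7.61 and 7.84 in TRA1. The labelling kit primes on poly(A) tails, and what the tRNA probe sets read was not tested.

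Around these genes, the enzymes of folate and one-carbon metabolism were called in both directions. Of 15 such genes, all measured, 6 rose and 6 fell, beside the background of 40.6%, with a median of 0.07. MET6, the methionine synthase that takes its methyl group from folate, rose by 0.88 ± 0.18 (SE; limma adjusted p = 0.0056). ABZ1, of p-aminobenzoate synthesis, rose by 0.89 ± 0.24, and FOL2 and FOL3, of folate synthesis, by 0.64 ± 0.085 and 0.45 ± 0.083. MET13 and MET12 encode the methylene-tetrahydrofolate reductases, with a rise of 0.36 for MET13 while MET12 fell by 0.40. The C1-tetrahydrofolate synthases split as well: ADE3, the cytosolic enzyme, rose by 0.33 ± 0.10, and MIS1, the mitochondrial one, fell by 0.69 ± 0.22. DFR1, dihydrofolate reductase, fell by 0.57 ± 0.10, ABZ2 by 0.49, FOL1 by 0.30 and CDC21, thymidylate synthase, by 0.73. Both CDC21 means (2.11 in tra1-2ts and 2.84 in TRA1) were under the highest mouse control mean (3.93). These 12 genes had adjusted p-values between 0.000655 and 0.048. MET7, folylpolyglutamate synthase, differed by 0.27 and did not pass (adjusted p = 0.0562), but did with the time point as a block (0.0377); FAU1 and FMT1 did not pass, at 0.07 and -0.03. The calls of 4 of the 12, MET6, FOL2, FOL3 and DFR1, survived the loss of any 1 array. ADE3 lost its call without any 1 of 5 arrays, and MET13, FOL1 and ABZ2 without any 1 of 4. MIS1 lost it without any 1 of 3 arrays, with a difference of -0.41 when the tra1-2ts array at 60 min was left out. MET12 lost it without tra1-2ts at 90 or 120 min, CDC21 without tra1-2ts at 60 min and ABZ1 without tra1-2ts at 90 min. The MIS1 call also ended with quantile normalization over the tested genes (limma adjusted p = 0.0545). That of FOL1 ended with centring on array medians (0.067). Without both 90 min arrays 3 of the 12 were called, FOL2, DFR1 and ABZ2, beside 18.1% of all genes. Without both 120 min arrays 3 genes of the list in place of 6 were called lower, beside 999 of 5551 genes.

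Of 12 genes for the entry, use and breakdown of serine and glycine, 2 rose and 3 fell, a share near the 40.6% called over all genes, with a median of -0.05. CHA1, the serine and threonine deaminase that Cha4 activates, read 6.17, 6.39 and 6.45 in tra1-2ts, against 5.46, 5.60 and 5.13 in TRA1, and rose by 0.94 ± 0.14 (SE; limma adjusted p = 0.001). CYS4, cystathionine beta-synthase, which joins serine to homocysteine, read 8.48, 8.68 and 8.61 in tra1-2ts and 9.76, 10.12 and 9.75 in TRA1. It was lower on every tra1-2ts array and fell by 1.29 ± 0.12 (SE; 2.44-fold lower, adjusted p = 0.000171). SES1, seryl-tRNA synthetase, fell by 0.77 ± 0.097 and GRS1, glycyl-tRNA synthetase, by 0.35 ± 0.11. AGX1, which makes glycine from glyoxylate, rose by 0.28 ± 0.084. The calls of CHA1, CYS4 and SES1 held without any 1 array. That of AGX1 ended without any 1 of 5 arrays and that of GRS1 without any 1 of 4. Without both 90 min arrays CHA1, CYS4 and SES1 were called, beside 18.1% of all genes. The genes that use serine for lipids did not pass, with differences of 0.34 for CHO1, -0.17 for LCB1 and -0.04 for LCB2, nor did GLY1, threonine aldolase, at 0.20, or HEM1, which uses glycine for heme, at -0.19. GSH2, of glutathione synthesis, differed by 0.30 with an adjusted p of 0.0695, and of 0.0222 with the time point as a block.

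Of 15 regulators of SER3 and the GCV genes, 14 were measured, and 3 rose and 1 fell, with a median of 0.10. This share of calls lies below the 40.6% over all genes. BAS1 read 5.63, 5.65 and 5.91 in tra1-2ts, against 6.49, 6.84 and 6.77 in TRA1, and fell by 0.97 ± 0.12 (SE; limma adjusted p = 0.000547). Its arrays did not overlap between the strains. The difference of its partner PHO2 was 0.11 (adjusted p = 0.454), with readings of 3.80 to 4.15 around the mouse control level. GCN4, the general activator of amino acid synthesis, rose by 0.46 ± 0.090, and the SAGA subunit genes SPT20 and SPT3 rose by 0.45 ± 0.088 and 0.37 ± 0.10. The SPT3 call ended without tra1-2ts at 60 or 90 min. Without both 90 min arrays BAS1 and SPT20 were called, beside 18.1% of all genes. CHA4 averaged 4.11 ± 0.13 in tra1-2ts and 4.02 ± 0.16 in TRA1 (adjusted p = 0.569), and SNF2, the Swi/Snf ATPase gene, differed by 0.24 (adjusted p = 0.137). SPT6, SPT16, SPT2, PAF1 and CTR9, which encode factors that travel with RNA polymerase or chromatin during transcription, had differences from -0.27 to 0.19. The SAGA genes GCN5 and SPT8 both differed by 0.05, and no gene of either group passed. CTR9 (3.29 to 3.63) and SPT6 (3.69 to 4.04) read under or around the mouse control level, which limits what their small differences mean.

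**Figure D4:**
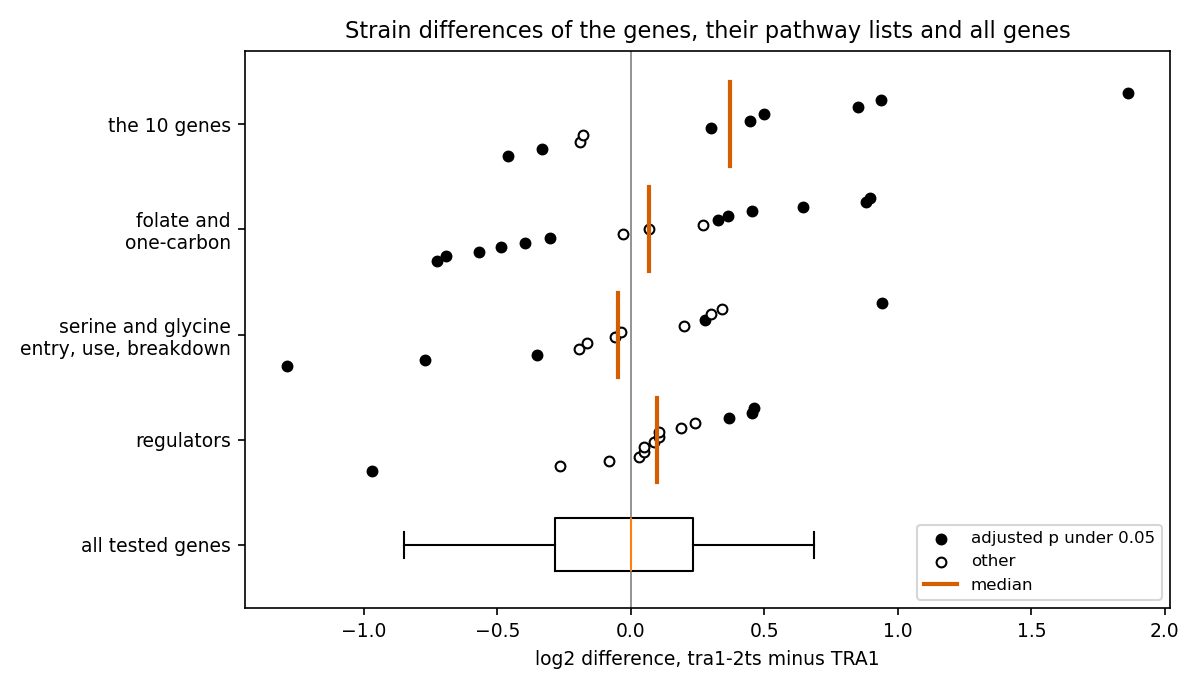
Log2 differences, tra1-2ts minus TRA1 (horizontal axis), are shown for the 10 genes and the 3 pathway lists, 1 point per gene, filled where the limma adjusted p is under 0.05, with the list median as a vertical bar. The box gives the quartiles and median of all 5551 genes, with whiskers at the 5th and 95th percentiles. The median of the 10 genes is 0.37, and the lists' medians lie between -0.05 and 0.10. SER3 and GCV2 are filled by the same rule, but their rise was known beforehand, so their fill is no test.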

How the data were processed

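Total RNA for the 6 arrays carried a biotin label, added with a kit that transcribes from the 3' end, per the labels' protocols. The deposited log2 values were made with RMA and oligo, an R package, per the submitters' processing notes; the version and genome build are not given in the sources used here. Of 6776 probe sets, 5668 name 1 gene and were matched by gene ID to RefSeq R64 for symbols and gene order; 183 with several genes and 925 with none were left out. Where a gene had several probe sets (91 genes), the brightest was used, which left 5551 genes.

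Log2 values were fitted with limma 3.58.1 (R 4.3.3) over all genes, with two-sided tests and p-values adjusted over all of them by Benjamini-Hochberg. The strain test has genotype alone at a threshold of 0.05 (4 residual degrees of freedom), the time test adds a shared slope over minutes, and the third test adds a slope per strain. The fits were tested on simulated data with independent noise. Such data lack the deviations that same-time arrays share, so they cannot show whether the p-values hold here. The small number of arrays limits the precision. Named were the 10 genes, the called or partner genes of the pathway lists, the 5 profiles nearest to SER3, and TRA1; AIM9 and UTP7, the marker genes and the uncalled list genes given for completeness fall outside this. The genes and lists were chosen with earlier results of these data known. Replicate numbers in the array titles mark the time point, so same-numbered arrays are paired by the labels; their deviations from the strain means correlated across genes at r = 0.31 (60 min), 0.0656 (90 min) and 0.33 (120 min). Alternatives covered scaling, a filter on dim genes, moderation, other probe sets, the time as a block or covariate, thresholds and left-out arrays.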

Additional observations from a re-analysis of the deposited data

How the results depend on the processing

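All 169 strain differences recomputed for the 10 genes kept their sign, and 141 kept their side of the threshold. Part of this agreement was fixed in advance. Moderation, probe set choice, the dim-gene filter, the block and the time covariate cannot change these differences here. Nor can a left-out array turn the sign of a gene whose arrays do not overlap between strains. The number of the 10 genes called was 5 to 7 with 1 array left out, against 8 in the main test. It was 6 without both 60 min arrays, 2 (SER3 and GCV2) without both 90 min arrays and 5 without both 120 min arrays. Over all genes 36.8%, 18.1% and 31.1% were called in these 3 settings. Fewer arrays remain wherever arrays were left out. At an adjusted p under 0.01 the number was 5. The share over all genes was not counted there or with 1 array left out, so nothing is read from these counts. With at least a 2-fold difference required the number was 1, SER3, whose rise was known beforehand. Over all genes 135 of 5551 were called at least 2-fold higher. With the time point as a replicate block 8 were called, beside 45.4% of all genes. Among the genes and lists described the block added the calls of MET7 and GSH2 and changed no other. The filter on dim genes (mean under 5.05) removed SER3, so it gave no SER3 value. The shared slope of SER2 turned to 0.018 with quantile normalization, 0.022 with centred arrays and 0.012 over log2 of minutes, and ran from -0.21 to 0.096 with 1 array left out. The slope difference of SHM1, 0.00092, turned to -0.0018 with centred arrays. Neither slope was called under any alternative, and the cause was not tested. Signals near the mouse controls, those of SER3 in TRA1, PHO2, CHA4, CTR9, SPT6 and CDC21 among them, limit what a fold means.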
